A study of Homo sapiens with 30 samples.

Results

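RNA of 22Rv1 cells was compared after 8 h with KB742 or with its solvent DMSO, in 6 of the 30 libraries of a SLAM-seq series. 22Rv1 is an established human cell line derived from a castration-resistant prostate tumour. The 6 libraries were chosen by their titles, 3 with KB742 and 3 with DMSO, and neither group was chosen by a measured value. All cells had first received 800 µM 4-thiouridine (s4U) for 30 min. The medium was then replaced by one that held 800 µM s4U again, with DMSO alone or with 1.2 µM KB742, and cells were collected 8 h later. The other libraries were taken at the end of the first 30 min (0 h, the start), at 2 and 4 h with DMSO or KB742, and at 2, 4 and 8 h with 4 µM KI-ARv-03, another inhibitor. A treatment field gives KB742 a higher dose than the titles and the extraction protocol, whose 1.2 µM is used here. The descriptions name DMSO for every sample, and a protocol field gives another duration, so compound and time were taken from the titles. This is 1 cell line, and nothing in the labels says that the replicates were separate cultures, so p-values measure the spread between libraries, which may be technical.

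KB742 inhibits CDK9, the kinase of P-TEFb. P-TEFb phosphorylates RNA polymerase II and its pausing factors and so lets the paused polymerase move into the gene body. When CDK9 is blocked, little new messenger RNA is made, and short-lived transcripts are known to be lost first. In SLAM-seq, new RNA takes up s4U, which iodoacetamide then alkylates, so that reads from labelled transcripts show T-to-C changes. A gene therefore has 2 readouts, its RNA level and its conversion level, and the second rises while older copies are replaced by labelled ones.

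Sequencing depth at 8 h ran from 3376880 to 7817760 reads per library, of which 1415058 to 3779538 fell on the genes kept, and 11675 to 13638 genes were detected in each. Levels are in CPM, reads scaled to a common library total, and were rescaled between libraries, so they are shares of a library's RNA and say nothing of RNA per cell. With bulk RNA, fewer cells expressing a gene and less of its RNA per cell cannot be told apart. The sums of markers that follow are in CPM as deposited, without this rescaling. They are on another scale than the other CPM values and were not compared between groups. All 8 luminal prostate markers passed the filter on low values, summing to 291 to 458 CPM with DMSO and 397 to 541 with KB742. The basal markers KRT5, KRT14 and TP63, all 4 endothelial markers and the immune markers PTPRC and CD3E were at 0 in the 6 libraries. Stromal markers summed to 2.37 to 7.39 CPM. Of 6 neuroendocrine markers 3 were tested, summing to 64.1 to 83.5 CPM with DMSO and 74.4 to 230.4 with KB742, and INSM1 and NCAM1 were at 0.

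Labelled RNA stayed low for 8 h with KB742. The mean conversion of a library, over its reads on the rows kept, was 0.898%, 1.29% and 1.49% in the DMSO libraries and 0.393%, 0.358% and 0.434% in the KB742 libraries. The groups did not overlap, and every KB742 library lay below the lowest DMSO library. KB742 had 0.322 of the DMSO mean, a difference of -0.832 percentage points (exact two-sided permutation p = 0.1, the smallest that 3 libraries against 3 allow). The 0 h libraries, which had only the first 30 min of label, had 0.409%, 0.340% and 0.289%. Of the 3 KB742 libraries at 8 h, 2 lay within the range of these start libraries and 1 just above it.

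**Figure D1:**
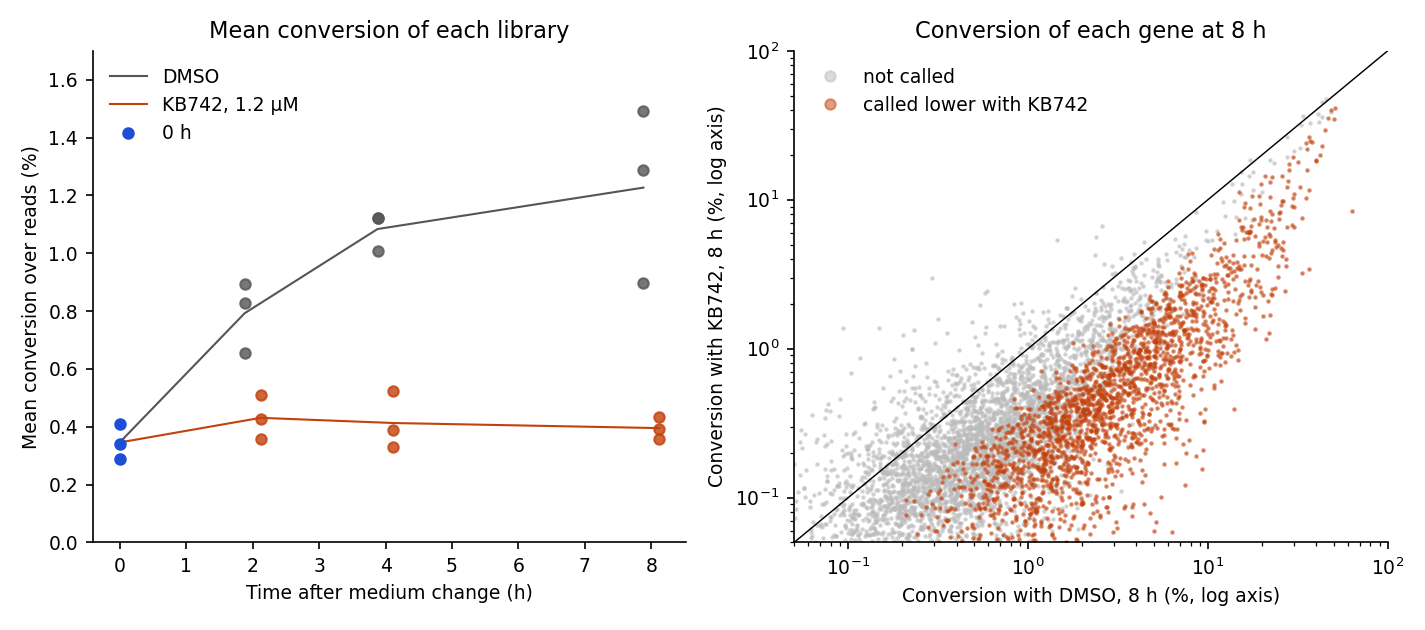
Left, mean conversion over the reads of each library on the rows kept (percent) against hours after the medium change, with 1 point per library and lines through group means; the KB742 points stay between 0.330% and 0.522% while DMSO reaches 0.898% to 1.49% at 8 h. Right, conversion of each gene at 8 h with KB742 against DMSO on log axes, with the line of equality; 5461 genes at 0.05% or above in both groups are drawn and 780 are not, and genes called lower lie below the line.

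Which transcripts carried less label? Of 6241 genes with enough reads for a conversion test, 2169 (34.8%) had lower conversion with KB742 and 0 (0%) had higher conversion at an adjusted p under 0.05 in limma. At an unadjusted p under 0.05 the counts were 2798 and 2. The groups did not overlap, with KB742 below, for 3031 genes (48.6%), and with KB742 above for 25 (0.401%). Among the 2169 genes the median was 2.52% with DMSO, 0.371% with KB742 and 0.307% at the start, and 2134 of them had less than 50% of their DMSO value. Over all genes tested the medians were 0.85%, 0.239% and 0.209%. Without DMSO replicate 2, the deepest of the 6 libraries, 1340 genes were called lower. The share called lower differed with how strongly genes labelled. Of genes under 0.5% conversion with DMSO at 4 h, 298 of 2512 were called lower. Of genes at 10% or more, 119 of 149 were. The counts per list below stand beside the 34.8% of all genes and were not set against genes that label alike.

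PPP2R2A, a regulatory subunit of the phosphatase PP2A, had 29.8%, 36.4% and 43.8% conversion with DMSO and 4.07%, 1.62% and 4.64% with KB742, each behind 107 to 350 reads (adjusted p = 4.55e-15). Its start value was 0.650%. The groups did not overlap, which the rule for naming required. The KB742 libraries stayed far nearer the start than the DMSO libraries. TMEM127, a membrane protein that restrains mTOR signalling, had 33.6% ± 3.20 (SD, n = 3) with DMSO and 3.22% ± 1.51 with KB742 (adjusted p = 3.01e-11). SRP19, a subunit of the signal recognition particle, had 33.4% ± 2.14 and 7.54% ± 2.22 (adjusted p = 1.71e-10). The homeobox gene HOXB7, the gene MESD of a chaperone for LDL receptor proteins, the kinase gene MAP2K7, the WASP-binding gene WIPF2, the dynein adaptor gene BICD2 and C1orf35 were the others with the largest falls among genes with a value in all 6 libraries, from 26.7% to 42.0% with DMSO to 2.45% to 19.9% with KB742. None of the 3 KB742 libraries of these genes overlapped the DMSO libraries, which the rule for naming required. On the log2 scale, where 1824 genes were called lower in all, the calls of HOXB7 and C1orf35 were lost (adjusted p = 0.0691 and 0.253). SLC4A1, an anion exchanger of red cells, also met the rule for naming, with 50%, 40.9% and 100% against 0%, 0% and 25%. It rests on 28 to 191 reads a library and scatters widely: its start value was 0% and its KB742 value at 4 h was 43.0%. Leaving out DMSO replicate 3 took its adjusted p to 0.103.

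Of the luminal transcription factor genes 7 of 12 tested had lower conversion and of the androgen-response genes 7 of 20, against 34.8% of all genes, so the second list was near that share. ONECUT2, a transcription factor of lineage-changing prostate cancer, went from 18.6% ± 2.29 with DMSO to 2.69% ± 0.180 with KB742 (n = 3 each, adjusted p = 4.55e-15). The androgen-response gene PMEPA1, a brake on TGF-beta signalling, had 13.3% ± 2.91 and 3.48% ± 0.520 (adjusted p = 1.32e-10).

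The P-TEFb and elongation list had 5 of 17 genes with lower conversion, no more than the 34.8% of all genes. Cyclin T1 (CCNT1), the partner of CDK9, had 22.8% ± 3.77 with DMSO (n = 3) and 8.06% ± 1.08 with KB742 (n = 2, adjusted p = 7.31e-05). MEPCE, which caps the 7SK RNA that holds P-TEFb inactive, had 30.2% ± 7.67 and 8.89% ± 6.59 (n = 3, adjusted p = 0.000141). Both calls were lost on the log2 scale (adjusted p = 0.151 for CCNT1 and 0.0542 for MEPCE). The list of CLK kinases, L-type cyclins and SR splicing factors had 11 of 16 against the same 34.8%, among them TRA2B, a splicing factor, with 7.0% ± 2.84 and 0.991% ± 0.0967 (n = 3, adjusted p = 1.45e-06).

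XIAP, which blocks caspases, had 3.63%, 8.71% and 7.68% with DMSO and 0.175%, 0.124% and 0.217% with KB742 (adjusted p = 2.66e-08). Every KB742 library was below the start mean of 0.512%. Against 34.8% of all genes, lower conversion was called for 4 of 6 anti-apoptotic genes, 7 of 14 heat shock genes and 5 of 8 p53-activated genes, the last with them the cell cycle inhibitor CDKN1A (15.9% ± 1.79 to 3.64% ± 2.08, n = 3, adjusted p = 1.27e-07) and MDM2, which degrades p53 (7.05% ± 3.44 to 0.838% ± 0.138, n = 3, adjusted p = 1.21e-06). Cyclin D1 (CCND1), which drives G1 progression, had 10.2%, 16.6% and 13.8% with DMSO and 1.63%, 1.37% and 1.01% with KB742, behind 3673 to 6306 reads (adjusted p = 7.88e-14). In the heat shock list the HSP70 partner DNAJA1 was at 10.0% ± 3.61 and 0.973% ± 0.207 (n = 3, adjusted p = 2.85e-08). Median conversion with DMSO at 8 h was 8.02% for the anti-apoptotic, 0.474% for the heat shock and 3.26% for the p53-activated list. Over all genes tested it was 0.85%.

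Housekeeping transcripts, which are long-lived, had low conversion in both groups. Ribosomal protein genes were lower for 24 of 76 tested (medians 0.259% with DMSO and 0.139% with KB742), respiratory chain genes for 29 of 81 (0.317% and 0.114%), and glycolysis and housekeeping genes for 11 of 20 (0.443% and 0.159%). The first 2 counts are near the 34.8% of all genes. They are above the share of genes under 0.5% with DMSO at 4 h, where 298 of 2512 were lower. That group had a median of 0.316% with DMSO at 8 h. GAPDH, a glycolytic enzyme, had 1.09%, 2.03% and 1.99% with DMSO and 0.236%, 0.588% and 0.386% with KB742 behind at least 7379 reads each (adjusted p = 4.77e-07). Sterol and lipid synthesis genes were lower for 13 of 20, with the sterol oxidase gene MSMO1 at 8.64% ± 2.15 and 1.11% ± 0.171 (n = 3, adjusted p = 6.81e-09). Against the same 34.8%, of the remaining lists MYC-activated genes had 10 of 23, S-phase genes 8 of 18, G2 and mitosis genes 6 of 13, stress response genes 6 of 10, immediate early genes 5 of 9, long non-coding RNAs 4 of 9, histone genes 3 of 12, DNA repair genes 3 of 10, interferon-stimulated genes 2 of 5, pro-apoptotic genes 2 of 2 and NF-kB-activated genes 0 of 1.

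Which RNA levels differed? Of 11414 genes tested, 141 were higher with KB742 (1.24%) and 68 were lower (0.596%), in limma at an adjusted p under 0.05, which is 1.83% in either direction. The median log2 difference was 1.51 for the 141 and -1.95 for the 68, with -0.03 over all genes. The groups did not overlap for 140 of the 141 and 67 of the 68, which a call on these same 6 libraries makes likely. This is no further support for the calls. Over all genes tested the groups did not overlap for 1891 (16.6%). At an unadjusted p under 0.05, 984 genes were higher and 600 lower. The calls borrow the spread of all 30 libraries: in a fit of these 6 libraries alone 0 genes were called (1043 at an unadjusted p under 0.05), edgeR called 72 higher and 45 lower, and DESeq2 156 and 95. Without DMSO replicate 3 the counts were 47 and 23, without KB742 replicate 1 they were 59 and 44, and 43 were lower without DMSO replicate 2 or KB742 replicate 2. The balance depends on scaling: 67.5% of calls were higher as given, 86.7% with the deposited scaling and 87.7% with library totals, which moved the median of all genes up by 0.28 and 0.23 on the log2 scale.

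**Figure D2:**
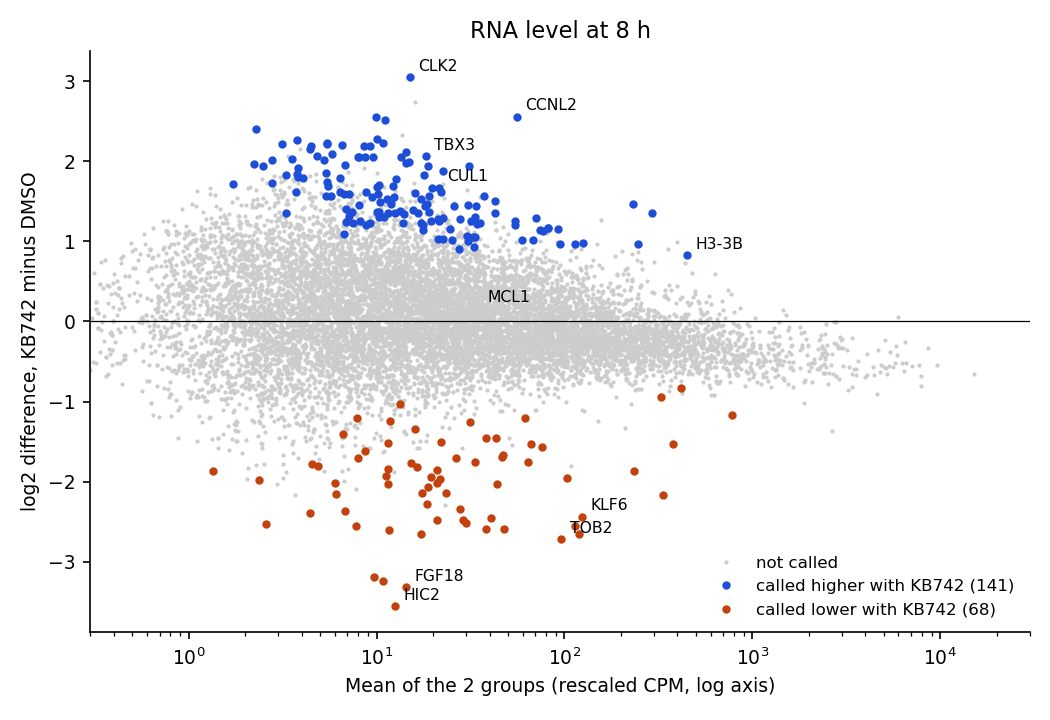
Log2 difference in RNA level at 8 h (KB742 minus DMSO) against the mean of the groups in rescaled CPM (log axis), with 1 point per gene. The 141 genes called higher and the 68 called lower are coloured, and CLK2 and HIC2 mark the ends of the range.

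HIC2 and FGF18 had the largest falls. HIC2, a zinc finger repressor, had 19.2, 22.1 and 30.5 CPM with DMSO and 1.61, 1.01 and 0.742 with KB742 (log2 difference -3.55 ± 0.47 SE, adjusted p = 8.83e-05), the latter resting on 4, 2 and 1 reads. FGF18, a growth factor gene, had 9.93, 29.1 and 42.5 CPM with DMSO and 0.803, 1.01 and 2.97 with KB742 (-3.32 ± 0.47, adjusted p = 0.000198), the latter resting on 2, 2 and 4 reads. In both genes the highest KB742 library was below the lowest DMSO library, which the rule for naming the largest differences required. Their promoters are shown because these genes had the largest falls, with matches to GGGCGG, the GC box, in capitals. HIC2 (chr22:21417121-21417370, + strand) and FGF18 (chr5:171419397-171419646, + strand) are given as the 250 bases before the start, 5′ to 3′, from RefSeq on GRCh38.p14.
HIC2: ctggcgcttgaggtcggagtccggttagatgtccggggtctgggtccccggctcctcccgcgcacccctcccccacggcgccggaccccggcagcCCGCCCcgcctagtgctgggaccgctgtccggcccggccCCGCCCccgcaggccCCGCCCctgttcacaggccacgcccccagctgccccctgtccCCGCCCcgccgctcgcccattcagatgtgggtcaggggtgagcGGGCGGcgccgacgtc
FGF18: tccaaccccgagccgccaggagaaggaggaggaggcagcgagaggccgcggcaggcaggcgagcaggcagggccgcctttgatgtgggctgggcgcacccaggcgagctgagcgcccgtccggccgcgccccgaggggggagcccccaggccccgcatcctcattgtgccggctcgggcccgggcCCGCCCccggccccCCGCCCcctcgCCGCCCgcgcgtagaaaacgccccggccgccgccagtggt

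TOB2, an antiproliferative protein that recruits deadenylases to messenger RNA, had 126, 167 and 204 CPM with DMSO and 11.2, 40.7 and 28.9 with KB742 (-2.72 ± 0.36, adjusted p = 8.83e-05). KLF6, a Krüppel-like factor, had 153, 129.9 and 351 CPM with DMSO and 31.3, 25.1 and 51.9 with KB742 (-2.44 ± 0.35, adjusted p = 0.000253). For both genes the highest KB742 library lay below the lowest DMSO library, which the rule for naming required of TOB2 only. DNAJB1, a co-chaperone of HSP70, had 50.9, 114 and 83.2 CPM against 12.4, 7.04 and 20 (-2.60 ± 0.37, adjusted p = 0.000198). MIR22HG, the host transcript of a microRNA, had 49.0, 75.6 and 73.0 CPM against 14.1, 6.03 and 11.1 (-2.60 ± 0.36, adjusted p = 0.000196). SESN2, a stress-induced sestrin, had 13.7, 17.1 and 24.0 CPM against 0.803, 0.503 and 2.23 (-3.19 ± 0.52, adjusted p = 0.000922), the latter resting on 2, 1 and 3 reads. The groups of DNAJB1, MIR22HG and SESN2 did not overlap, which the same rule required. ZNF557 (-3.24 ± 0.46), ZNF3 (-2.65 ± 0.45), LINC00899 (-2.65 ± 0.47) and MAP2K7 (-2.56 ± 0.42), a kinase that activates JNK, completed the named falls that held without each library in turn. The falls of IRF7, the interferon regulatory factor (-2.60 ± 0.62), and EID2B (-2.55 ± 0.61) did not: the calls were lost without DMSO replicate 2 or 3 or KB742 replicate 1, and also without KB742 replicate 3 for IRF7 and replicate 2 for EID2B (adjusted p up to 0.204 and 0.145), and with edgeR (0.118 and 0.150).

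CLK2 and CCNL2 had the largest rises. CLK2, a kinase that phosphorylates SR proteins, had 1.24, 4.65 and 1.85 CPM with DMSO and 20.1, 22.6 and 40.1 with KB742 (3.05 ± 0.51, adjusted p = 0.00120), the former resting on 2, 12 and 2 reads. CCNL2, an L-type cyclin found in splicing speckles, had 16.8, 15.5 and 12 CPM with DMSO and 61.8, 146 and 83.1 with KB742 (2.56 ± 0.38, adjusted p = 0.000287). All KB742 libraries were above all DMSO libraries for both, which the rule for naming required. The conversion of CCNL2 went the other way, 7.93% ± 1.89 with DMSO (n = 2) and 0.791% ± 0.874 with KB742 (n = 3, adjusted p = 2.67e-06). The promoters of the 2 genes with the largest rises, both on the minus strand of chromosome 1, are shown the same way (CLK2 at chr1:155273505-155273754 and CCNL2 at chr1:1399336-1399585), with matches to the GC box, the CCAAT box or the E-box in capitals.
CLK2: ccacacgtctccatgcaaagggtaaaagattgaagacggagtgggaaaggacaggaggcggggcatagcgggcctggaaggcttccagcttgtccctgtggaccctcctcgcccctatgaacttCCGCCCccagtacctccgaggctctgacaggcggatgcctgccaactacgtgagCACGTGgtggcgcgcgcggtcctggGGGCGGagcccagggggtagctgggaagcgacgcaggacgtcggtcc
CCNL2: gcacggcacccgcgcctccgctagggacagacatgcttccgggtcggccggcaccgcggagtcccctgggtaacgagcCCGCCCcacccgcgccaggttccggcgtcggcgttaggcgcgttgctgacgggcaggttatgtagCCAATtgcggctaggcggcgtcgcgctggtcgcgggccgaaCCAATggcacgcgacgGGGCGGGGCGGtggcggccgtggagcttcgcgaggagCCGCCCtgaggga

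TBX3, a T-box repressor of luminal cells, had 4.97, 9.30 and 5.55 CPM with DMSO and 32.1, 29.7 and 28.2 with KB742 (2.07 ± 0.24, adjusted p = 2.73e-05). CUL1, the scaffold of SCF ubiquitin ligases, had 10.6, 11.6 and 7.39 CPM against 33.7, 30.7 and 34.9 (1.67 ± 0.22, adjusted p = 8.83e-05). Replicates of both genes lay close together and far from the other group. TNFRSF10B, a death receptor for TRAIL, had 1.86, 5.43 and 0.924 CPM against 16.5, 16.1 and 10.4 (2.20 ± 0.38, adjusted p = 0.00153). TSC1, which restrains mTOR, had 1.86, 4.65 and 0 CPM against 10.0, 8.55 and 14.1 (2.21 ± 0.43, adjusted p = 0.00460). NOL11 and WDR3, factors of ribosome assembly, the chromodomain gene CDYL2, the PI3-kinase subunit gene PIK3CB and the deubiquitinase-like USP54 were higher by 2.11 to 2.55 on the log2 scale. ARHGAP18 (2.19 ± 0.52) and PHLDB2 (2.06 ± 0.45) lost their calls without DMSO replicate 3 or KB742 replicate 1 (adjusted p up to 0.198 and 0.124), ARHGAP18 also without KB742 replicate 2, and both with edgeR (0.0944 and 0.0537). These DMSO values rest on few reads, such as 3, 14 and 1 for TNFRSF10B and 3, 12 and 0 for TSC1.

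**Figure D3:**
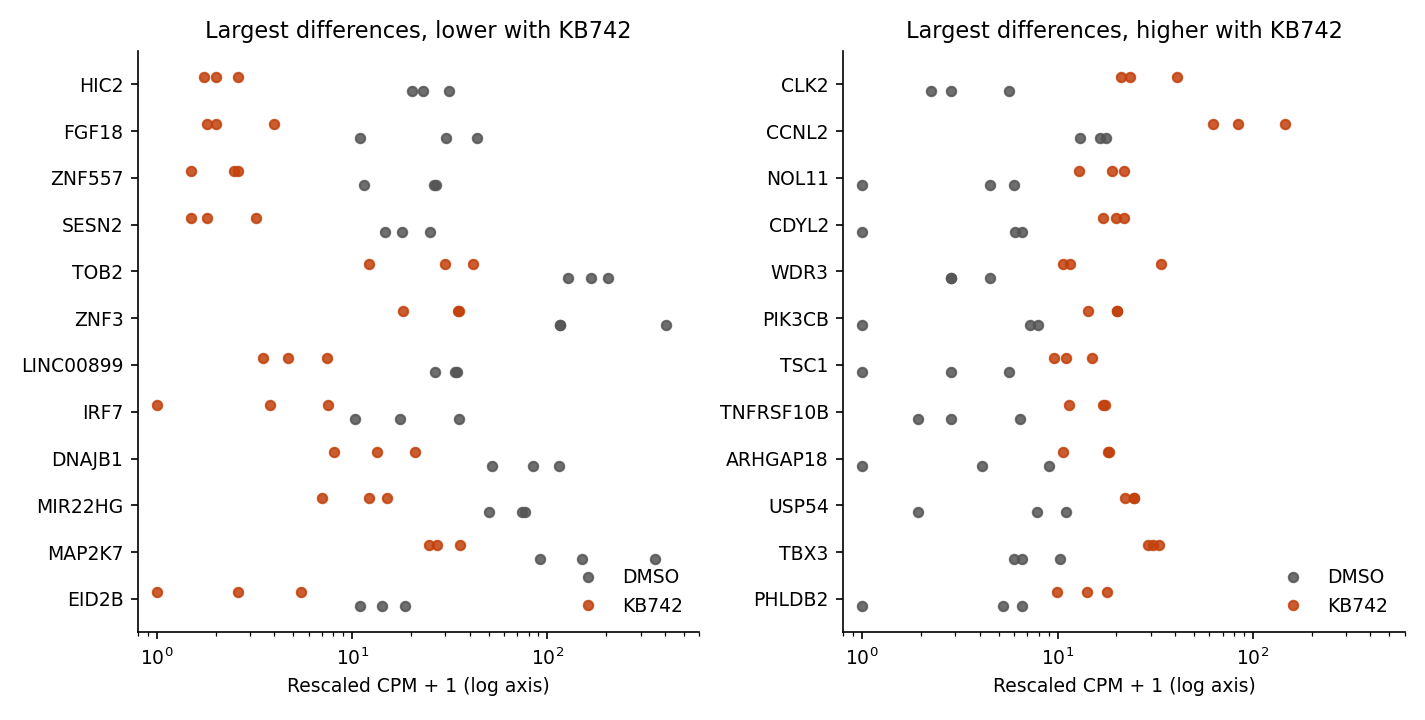
Rescaled CPM + 1 (log axis) in each of the 6 libraries at 8 h for the 12 genes with the largest falls (left) and the 12 with the largest rises (right); each point is a library, with DMSO below and KB742 above each gene's line. The KB742 and DMSO points do not overlap for any gene, which the rule for choosing them required.

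How did the same genes stand against the start? DMSO and KB742 are given side by side, since both are set against the same 0 h libraries. Of all genes tested, 29.1% were called below the start and 20% above it with DMSO, and 22.2% below and 12.3% above it with KB742. Of the 141 genes higher with KB742, 137 were called below the start with DMSO, 4 were not called and 0 were above it. With KB742, 64 of them were called below the start, 76 were not called and 1 was above it. Their median log2 difference from the start was -2.36 with DMSO and -0.77 with KB742. TBX3 stood at 269.8 ± 51.0 CPM at the start, 6.60 ± 2.35 with DMSO at 8 h and 30.0 ± 1.98 with KB742, so it was far below the start in both. CLK2 stood at 38.3 ± 13.0 CPM at the start, and was called below it with DMSO (-3.52 ± 0.51, adjusted p = 5.42e-06) but not with KB742 (-0.48, adjusted p = 0.50). CCNL2 stood at 70.7 ± 25.5, 14.8 ± 2.46 and 96.9 ± 43.7 CPM. For nearly all of these genes, "higher with KB742" thus described transcripts that were below the start with DMSO. With KB742 these transcripts were less far below the start, or not called. The 141 genes were chosen for low values with DMSO and high values with KB742 in these same 8 h libraries. Their counts and medians against the start are therefore partly set by that choice, and are descriptions.

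Of the 68 genes lower with KB742, 49 were called below the start with KB742, 18 were not called and 1 was above it. With DMSO, 8 were called below the start, 40 were not called and 20 were above it. The median log2 difference from the start was -1.73 with KB742 and 0.16 with DMSO. Here too the choice of the 68 genes, on low KB742 and high DMSO values in the same libraries, partly sets these figures. FGF18 stood at 0.0680 ± 0.118 CPM at the start, 27.2 ± 16.4 with DMSO and 1.59 ± 1.20 with KB742. MIR22HG stood at 12.3 ± 3.89, 65.9 ± 14.6 and 10.4 ± 4.06 CPM, and TOB2 at 47.3 ± 7.12, 166 ± 39.1 and 27.0 ± 14.8. These 3 genes were above the start with DMSO, and of them TOB2 was called below it with KB742 (-0.95, adjusted p = 0.0391). DNAJB1 and SESN2 were instead near their start with DMSO (-0.04 and 0.08) and below it with KB742 (-2.64 and -3.10, adjusted p = 6.27e-06 and 5.77e-05).

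**Figure D4:**
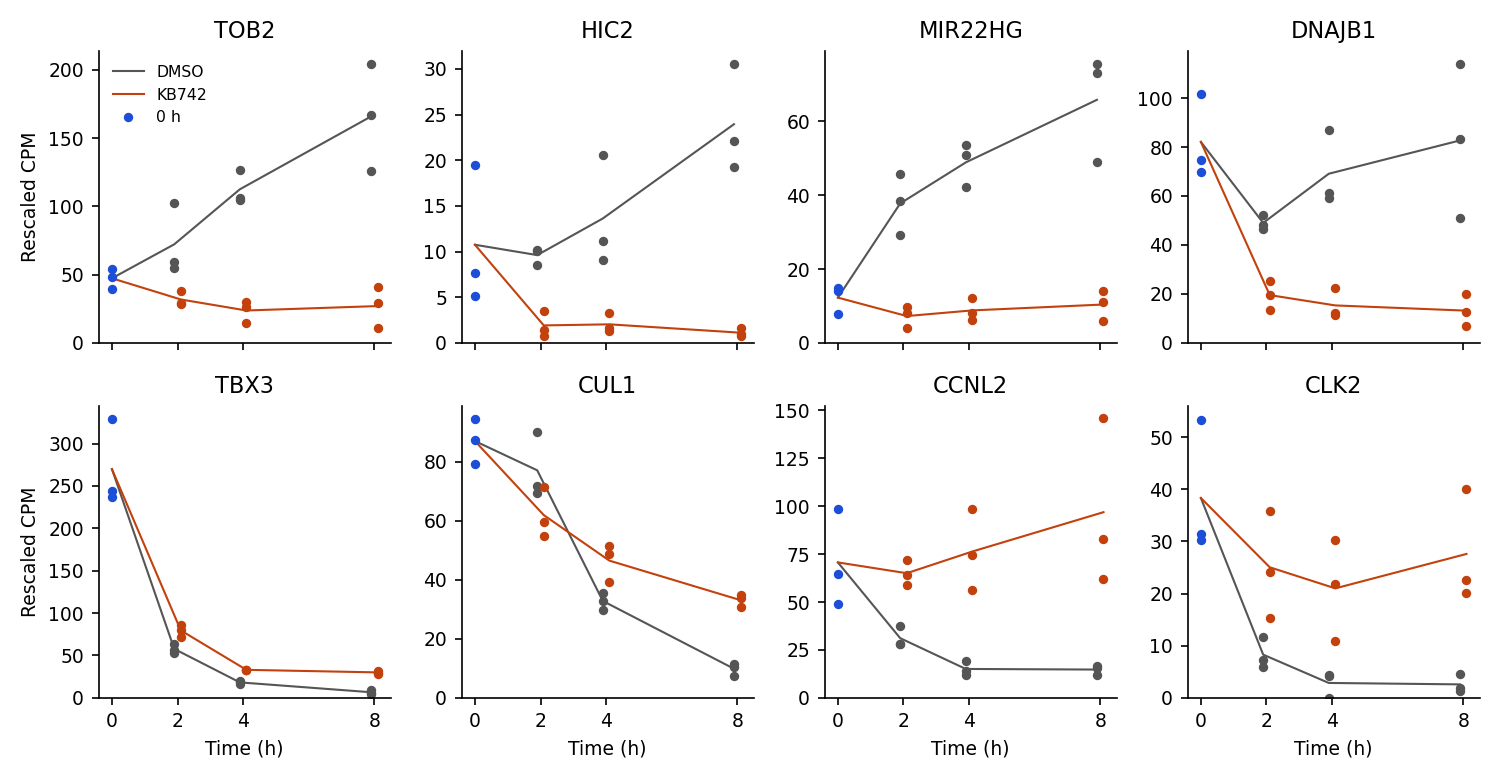
Rescaled CPM against hours for the 4 genes with the smallest p among the named falls (top) and rises (bottom); points are libraries and lines join group means from 0 h. with DMSO TOB2, HIC2 and MIR22HG climb, and with KB742 TOB2 and HIC2 end below their 0 h level and MIR22HG near it, while TBX3 and CUL1 fall with both, and for CCNL2 and CLK2 the KB742 points overlap those at 0 h.

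Fewer genes were called at the earlier times. At 2 h with KB742, 0 genes were called higher (0%) and 3 lower (0.0263%), and at 4 h 4 were higher (0.035%) and 9 lower (0.0789%). The 141 and 68 genes were chosen on their 8 h values, so their medians at other times are descriptions. The 141 genes had a median log2 difference of 0.14 at 2 h and 0.50 at 4 h, with the sign of 8 h in 103 and 132 of them. The 68 genes had medians of -0.52 and -1.11, with the sign of 8 h in 60 and 67. At 8 h with 4 µM KI-ARv-03, set against the same DMSO libraries, the medians were 1.40 and -1.82. HIC2 had a log2 difference of -3.28 and TBX3 of 1.87 with that compound. The doses differ and the control libraries are shared, so the compounds are not compared here.

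The effect at 8 h was tested against that at 2 h, which has its own DMSO libraries. For levels 1 gene was called (0.00876%), CUL1, with an effect of -0.31 at 2 h and 1.67 at 8 h (difference 1.98, adjusted p = 0.00970), and 691 had an unadjusted p under 0.05. Leaving out DMSO replicate 3 or KB742 replicate 1 at 2 h ended the call of CUL1 (adjusted p = 0.0744 and 0.0658), as did fitting only the 4 groups concerned (0.992). For conversion, 290 of 6158 genes fell further behind DMSO at 8 h than at 2 h (4.71%) and 1 went the other way (0.0162%). PPP2R2A had 4.03% with DMSO and 1.53% with KB742 at 2 h, and 36.7% ± 7.02 and 3.44% ± 1.60 at 8 h (n = 3, adjusted p = 2.68e-08). POLE3, a histone-fold subunit of DNA polymerase epsilon, had 3.37% and 1.16% at 2 h, and 18.8% ± 2.05 and 3.45% ± 0.413 at 8 h (n = 3, adjusted p = 6.36e-08). Mean conversion with DMSO was 0.792% at 2 h and 1.23% at 8 h, and on the log2 scale, which tests ratios, 0 genes were called in either direction.

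Levels were next set against how fast a transcript took up label with DMSO at 4 h, in libraries outside the comparison. The 394 genes with 10% conversion or more had a median log2 difference of -0.61, and 52 of them (13.2%) were called lower and 0 higher. In the next group down, 5 to 10%, 5 of 493 genes were lower and 10 higher. Of 2764 genes under 0.5%, 1 was lower and 7 higher, with a median of -0.19. The highest shares of genes called higher were at 1 to 2% (36 of 1448, 2.49%) and 2 to 5% (31 of 1276, 2.43%), where medians were 0.08 and 0.17. In all 7908 genes had a value at 4 h, with 107 of the 141 higher and 60 of the 68 lower genes among them. A value needed at least 20 reads in at least 2 DMSO libraries at 4 h, which genes low with DMSO pass less often. Among genes with a value, most of the lower genes were in the group that labelled fastest and 0 of the higher genes were. Higher genes without a value could not be placed, and some may label fast. Grouping by conversion with DMSO at 2 h gave 36 lower of 155 genes at 10% or more. These are counts over genes, which are not replicates. For the 149 genes of the fastest group that were tested, median conversion at 8 h was 22.5% with DMSO and 7.45% with KB742.

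**Figure D5:**
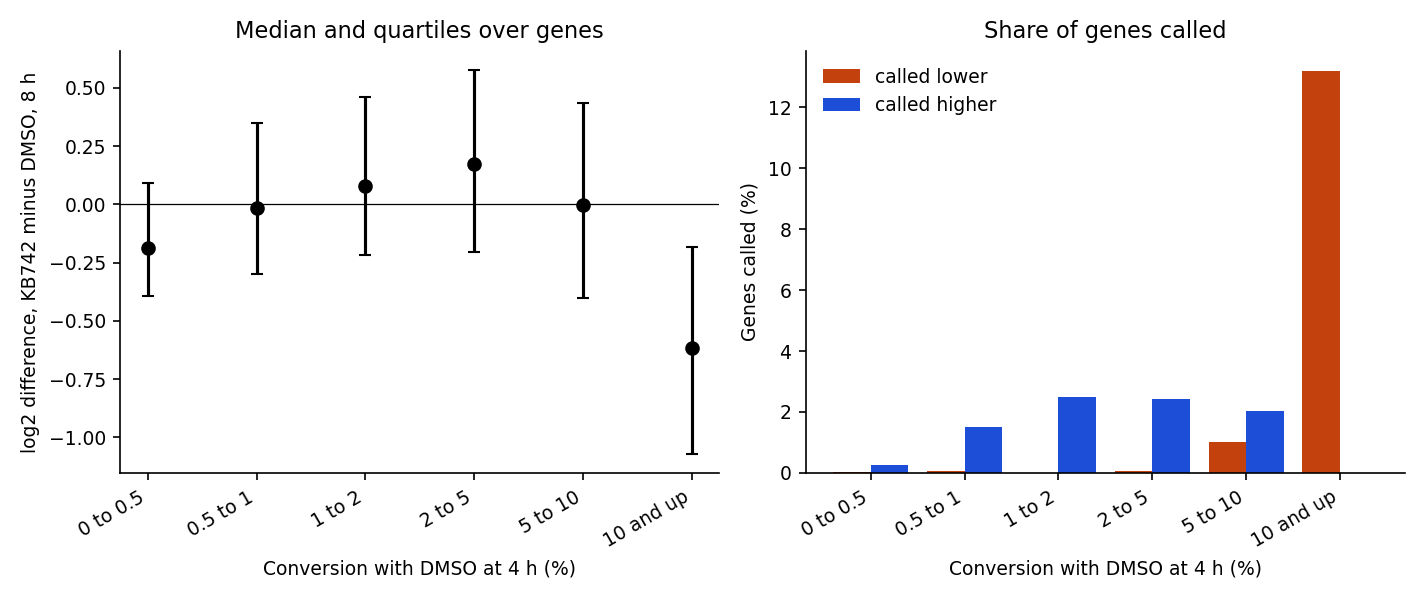
Genes grouped by their conversion with DMSO at 4 h (percent, horizontal axis). Left, median and quartiles of the log2 level difference at 8 h, KB742 minus DMSO; right, bars of the share of genes called lower or higher, with 13.2% called lower in the group at 10% and above.

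CDK9 is the kinase that the compound inhibits. CDK9 had 3.72, 3.88 and 2.77 CPM with DMSO and 1.61, 2.01 and 0.742 with KB742, on 1 to 10 reads a library (-0.89 ± 0.40, adjusted p = 0.318). CCNT1 (-0.76), the other T-type cyclin CCNT2 (0.93) and HEXIM1 (0.78), the inhibitor of P-TEFb, did not pass the test either. Of 35 P-TEFb and elongation genes 3 were higher and 0 lower, against 1.24% and 0.596% of all genes, with a median of 0.49 against -0.03 over all genes. CTR9, a subunit of the PAF1 complex that travels with the elongating polymerase, and RTF1, which acts with it, had 9.93, 10.1 and 6.47 against 37.3, 19.6 and 35.6 CPM and 23.6, 21.7 and 18.5 against 53, 38.2 and 45.3 CPM. Their log2 differences were 1.67 ± 0.37 and 1.06 ± 0.25 (adjusted p = 0.0162 and 0.0235). ELL2, an elongation factor that is also an androgen-response gene, had 97.4, 84.9 and 68.4 against 195, 122 and 185 CPM (0.98 ± 0.25, adjusted p = 0.0368). Groups did not overlap, but all 3 calls were lost without DMSO replicate 3 or KB742 replicate 1, those of CTR9 and ELL2 without KB742 replicate 3 and that of ELL2 without DMSO replicate 2 (adjusted p up to 0.161) and with edgeR (0.0523).

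Of 24 CLK kinase, L-type cyclin and SR factor genes 3 were higher, CLK2, CCNL2 and CCNL1, and 1 was lower, against 1.24% and 0.596% of all genes. CCNL1 had 3.72, 3.88 and 3.70 CPM with DMSO and 16.1, 12.6 and 12.6 with KB742 (1.62 ± 0.37, adjusted p = 0.0179; up to 0.0707 without DMSO replicate 3 or KB742 replicate 1). RSRP1, an arginine- and serine-rich protein, had 34.8, 62.0 and 49.9 against 10.0, 3.02 and 14.1 (-2.47 ± 0.56, adjusted p = 0.0167; up to 0.106 without DMSO replicate 2 or 3 or KB742 replicate 2). So both L-type cyclins were higher while RSRP1 was lower, and the median of the list was 0.35.

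The androgen-response gene KLK3, which encodes PSA, had 33.5, 28.3 and 22.2 against 15.3, 6.03 and 24.5 CPM (-1.0 ± 0.46, adjusted p = 0.318) and overlapped, and its relative KLK2 differed by -0.52 ± 0.38 (adjusted p = 0.583). The lineage factors FOXA1 (0.06 ± 0.35) and HOXB13 (0.09 ± 0.29) did not pass the test, and the sign of FOXA1 turned without DMSO replicate 1 or KB742 replicate 1. Of 23 androgen-response genes 1 was called (ELL2), and of 17 luminal factors 1 (TBX3), each higher, as were 1.24% of all genes.

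Of 8 anti-apoptotic and 10 pro-apoptotic genes 0 were called in limma at the level of RNA, with medians of -0.02 and -0.48. MCL1, a short-lived survival protein, had 23.0, 47.7 and 28.7 CPM with DMSO and 39.8, 22.6 and 49.0 with KB742 (0.16 ± 0.40, adjusted p = 0.917). The groups overlapped, and the sign turned without DMSO replicate 1 or KB742 replicate 3. MCL1 was far below its start of 187 ± 48.5 CPM with either. XIAP had 56.5, 65.1 and 63.8 against 104, 98.6 and 69.0 CPM (0.53 ± 0.24, adjusted p = 0.325). MYC, a growth regulator, was at 0 to 1.24 CPM with DMSO and 1.48 to 3.61 with KB742, on 9 reads or fewer (1.07 ± 0.59, adjusted p = 0.432), against 28.2 ± 13.6 CPM at the start. Of 26 MYC-activated genes 0 were called, with a median of 0.24.

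Among 29 immediate early and short-lived regulators 4 were lower (TOB2, KLF6, BTG1 and ZFP36L2) and 1 was higher, against 0.596% and 1.24% of all genes, with a median of -0.40. BTG1, an antiproliferative partner of the TOB proteins, had 26.1, 38.4 and 93.3 against 16.1, 6.54 and 19.3 CPM (-1.76 ± 0.39, adjusted p = 0.0162; up to 0.192 without DMSO replicate 3 or KB742 replicate 2, and 0.0772 with the deposited scaling). HES1, a Notch target, was the 1 higher (1.94 ± 0.50, adjusted p = 0.0419), on 2 reads or fewer with DMSO, and lost its call whichever of the 6 libraries was left out (adjusted p up to 0.199) and with edgeR (0.114) or DESeq2 (0.0904). Of 20 p53-activated genes TNFRSF10B was higher and SESN2 and PHLDA3 were lower. PHLDA3, a repressor of AKT, had 21.1, 53.5 and 42.5 against 10.0, 7.04 and 5.94 CPM (-2.14 ± 0.41, adjusted p = 0.00477). So the list split in direction, with a median of 0.04. DNAJB1 was the 1 called of 20 heat shock genes, SESN2 of 18 stress response genes and IRF7 of 11 interferon-stimulated genes, each lower, as were 0.596% of all genes.

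Of 22 G2 and mitosis genes 3 were higher and 0 lower, against 1.24% and 0.596% of all genes, with a median of 0.71. KIF20A, a mitotic kinesin, had 8.69, 5.43 and 6.47 against 21.3, 24.6 and 13.4 CPM (1.38 ± 0.29, adjusted p = 0.0123). BUB1B, a spindle checkpoint kinase, differed by 1.34 ± 0.29 (adjusted p = 0.0143) and CCNA2, cyclin A2, by 1.35 ± 0.30 (adjusted p = 0.0147). The 3 calls were lost without KB742 replicate 1, and singly without KB742 replicate 2 (KIF20A), DMSO replicate 3 (BUB1B) and DMSO replicate 2 or KB742 replicate 3 (CCNA2), with adjusted p up to 0.0922. CDC6, which loads the replicative helicase, had 3.10, 4.26 and 1.85 against 15.3, 9.55 and 8.90 CPM (1.60 ± 0.27, adjusted p = 0.00135) and was the 1 called of 24 S-phase genes. Its start level was 79.2 ± 8.92 CPM, so it stood below the start in both groups.

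Of 83 ribosomal protein, 81 respiratory chain, 22 glycolysis and housekeeping, 17 DNA repair and 5 NF-kB-activated genes 0 were called by limma. The medians of the first 3 were -0.57, -0.45 and -0.29 as scaled here, and that of the glycolysis list turned to 0.08 with the deposited scaling. H3-3B, a replication-independent histone H3 gene, was the 1 called of 13 histone genes, with 333, 370.2 and 255 against 716, 416 and 597 CPM (0.83 ± 0.21, adjusted p = 0.0354; up to 0.156 without DMSO replicate 3 or KB742 replicate 1 or 3). Its conversion was lower with KB742 (5.34% ± 1.71 to 1.57% ± 0.109, n = 3, adjusted p = 6.05e-07). MIR22HG was the 1 called of the 11 tested members of a list of long non-coding and small RNA host genes, which did not hold LINC00899. Zinc finger genes with ZNF symbols, a group taken up after values were seen, had 6 lower (ZNF557, ZNF3, ZNF134, ZNF687, ZNF24 and ZNF281) and 1 higher (ZNF839) of 306, against 0.596% and 1.24% of all genes.

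What else did the called genes share? Of the 141 higher genes 45 were tested for conversion and 27 were called lower, and of the 68 lower genes 26 were tested and 22 called lower, against 34.8% of all genes. The 141 higher genes were all protein-coding, as were 96.5% of all genes tested, and 4 of the 68 lower genes were long non-coding RNAs, against 2.21%. The median span of a gene, on GRCh38.p14, was 45573 bases for the higher genes, 10522 for the lower genes and 29791 for all genes tested. The GC share of the last 300 bases had medians of 36.0%, 43.8% and 40.7%. Base composition also differed between libraries: low-GC genes minus high-GC genes stood at 0.79 on the log2 scale in KB742 replicate 1, against -0.65 and -0.45 in replicates 2 and 3 and -0.78 to -0.24 in the DMSO libraries. A correction for GC gave 206 higher and 145 lower, with 132 of the 141 and 61 of the 68 still called. Without KB742 replicate 1, 55 of the 141 and 38 of the 68 were still called, and without DMSO replicate 3, 44 and 23. The part of base composition in the calls was not tested.

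RefSeq promoters were found for 117 of the 141 higher genes, 57 of the 68 lower genes and 9333 of all 11414 tested, and 4 motifs were searched on both strands in the 250 bases before the start, with overlapping matches each counted. TATAAA, the TATA box, was in 8.77% of lower, 4.27% of higher and 4.82% of all promoters. GGGCGG was in 70.2%, 61.5% and 68.9%, CCAAT in 35.1%, 41.0% and 36.0%, and CACGTG, the E-box, in 8.77%, 13.7% and 9.39%. HIC2 had 5 matches, FGF18 3, CLK2 3 and CCNL2 6. With 5 lower genes holding TATAAA, these shares are descriptions of the letters and were not tested.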

How the data were processed

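The authors deposited 1 table with a row per RefSeq transcript on hg19, per the submitters' processing notes, and 2 values per library. The first is a signal headed CPM by the authors: dividing each value above 0 by its library's smallest step gave whole numbers (100% within 0.05), and whole reads were recovered. The second is a deposited fraction headed conversion, printed as percent, whose numerator and denominator, like the aligner and caller, were not given in the sources used here. Spike-ins were not used here. The row with the highest summed CPM stood for a gene (22355 genes, 99.2% of identifiers with a symbol, 0.478% of reads unnamed). Values of a gene are those of this row alone. For some named genes, such as CCNL2 and TNFRSF10B, the row carries a non-coding RefSeq identifier.

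Levels were tested with limma 3.58.1 (R 4.3.3, trended variances) on log2(CPM + 1) after TMM scaling (edgeR 4.0.16) and filterByExpr with a minimum count of 10, in 1 fit of all 30 libraries. edgeR had been planned for counts, but the table holds none as such. For conversion, limma was run on arcsine square-root values, with those behind under 20 reads left missing and at least 2 values per group. Changes are log2 differences ± SE with Benjamini-Hochberg adjusted p over all genes, called under 0.05. The median 95% half-width was 0.86 on the log2 scale, covering the spread between libraries only. Fits were tested on simulated data. Named genes are, per direction, the 12 largest called level differences without overlap and at least 10 CPM in the higher group. Also named, per direction, are the 10 largest called conversion differences without overlap, and up to 3 genes per list. Lists, members and alternatives were chosen with earlier results of these data known. Some genes that the rule would name are not reported here.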

Additional observations from a re-analysis of the deposited data

Results flagged for a closer look

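CUL1 stood out because the effect of KB742 on its level differed between 2 and 8 h, by 1.98 on the log2 scale. It had 77.1 ± 11.3 CPM with DMSO and 61.9 ± 8.71 with KB742 at 2 h, and 9.86 ± 2.20 and 33.1 ± 2.17 at 8 h (n = 3 each). The call was lost without DMSO replicate 3 at 2 h (1.87, adjusted p = 0.0744) and without KB742 replicate 1 at 2 h (1.90, adjusted p = 0.0658). It was also lost without the 3 libraries that stand apart (1.96, adjusted p = 0.0620) and when only the 4 groups concerned were fitted (2.06, adjusted p = 0.992).

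The effect on conversion differed between the times for 290 genes that fell further behind DMSO at 8 h and for 1 gene that went the other way. The 1 gene was MAN2A2, a Golgi mannosidase, with 2.23% with DMSO and 0.0720% with KB742 at 2 h, and 0.414% ± 0.513 and 0.977% ± 0.284 at 8 h (n = 3). Its effect at 8 h alone did not pass the test (adjusted p = 0.175).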

How the results depend on the processing

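The 8 h counts of level calls (141 higher, 68 lower) were 72 and 45 with edgeR, 348 higher with library totals, 32 lower with the deposited scaling and 145 lower with the GC correction, which was chosen after seeing the data. When only the compared groups were fitted both counts were 0; that fit has fewer libraries to estimate the spread. Leaving out 1 library gave 47 to 168 higher and 23 to 64 lower. Whether replicate numbers pair the libraries is not known. Correlations of same-numbered deviations were 0.0584, -0.294 and -0.0449, and 3 such values cannot exclude pairing. With the replicate block 115 and 56 were called, and 2156 lower in conversion. Conversion calls were 1340 to 2110 lower without a library, and 2 higher with a minimum of 10 reads, 1 in the compared groups alone, 0 to 1 without a library and 2 without the 3 libraries outside these groups that stand apart (replicate 3 at 0 h, KB742 replicate 2 at 2 h, KI-ARv-03 replicate 1 at 4 h).

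For the 8 h effect minus the 2 h effect, level calls were 3 higher and 1 lower with DESeq2, 3 higher with library totals or the GC correction, 2 with the deposited scaling, 0 in the compared groups alone or without the 3 libraries that stand apart, and 0 to 7 without a library. Conversion calls were 186 lower with a minimum of 50 reads, 108 in the compared groups alone, 577 without the 3 libraries that stand apart and 157 to 497 without a library. They were 0 lower and 0 higher on the log2 scale, and 1 to 2 higher without a library. The causes were not tested.

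Signs that turned were those of MCL1 (-0.052 to 0.49 without 1 library) and FOXA1 (-0.031 to 0.27 without 1 library, -0.20 with the GC correction). With library totals and with the deposited scaling the medians turned to 0.20 and 0.26 for all genes, 0.22 and 0.29 for anti-apoptotic, 0.24 and 0.32 for DNA repair, 0.19 and 0.29 for heat shock, 0.20 and 0.25 for stress response, 0.20 and 0.28 for histone, 0.069 and 0.18 for interferon-stimulated and 0.058 and 0.10 for ZNF genes, and to 0.082 for glycolysis genes with the deposited scaling. Grouped by conversion at 2 h, the median of genes at 0.5 to 1% turned to 0.081. Leaving out 1 library kept the calls of 24 of 39 named level genes and 65 of 73 named conversion genes, and 19 of the 73 lost their calls on the log2 scale. Genes with few reads limit what could be called.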
